A study of Mus musculus with 12 samples.

Results

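Slc2a1, Hk2, Pfkp, Ldha, Pgk1, Pdk1, Car9, Vegfa, Bnip3 and Egln3 are 10 genes of glucose use and of the response to low oxygen. Their rows were taken by gene from a table of read counts with 24100 genes, and all 10 passed the filter on low counts that left 14263 genes for testing. The RNA came from mouse embryonic fibroblasts (MEFs) immortalized with SV40 large T antigen. WT cells were Rtf2+/+ and RTF2-deficient cells were Rtf2-/lox, a genotype with 1 deleted allele and 1 allele that Cre recombinase can excise. Cells of both genotypes carried a Cre retrovirus for 72 hrs before collection, so that the WT cells are also a control for Cre. There were 2 lines of littermates, isolated from different mothers, and 3 libraries for each genotype and line, described as technical replicates, which made 4 groups and 12 libraries. P-values therefore measure the spread between libraries of the same cells. They do not measure the spread between embryos, of which each line and genotype is 1.

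In glycolysis, glucose enters the cell through transporters, is phosphorylated by hexokinases, committed by phosphofructokinase and split into pyruvate with a gain of ATP. Pyruvate then either becomes lactate or enters mitochondria through the pyruvate dehydrogenase complex. Under low oxygen, the prolyl hydroxylases that mark the HIF α subunits for destruction by the VHL ubiquitin ligase lose activity, and HIF bound to ARNT raises transcription of many genes of glycolysis, of blood vessel growth and of mitophagy. Fibroblasts in culture use glycolysis strongly even with oxygen present.

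Total counts per library lay between 39360167 and 44695002. Rtf2 stood between 44.8 and 57.8 CPM (counts scaled to a common library size by TMM and given per 1e6) in the 6 WT libraries and between 5.45 and 6.66 CPM in the 6 RTF2-deficient libraries, a log2 fold change of -3.01 ± 0.057 (SE, adjusted p = 2.448e-11). The summed level of 8 fibroblast markers lay between 13290 and 21130 CPM. That of 6 endothelial markers lay between 10.8 and 21.6 CPM, nearly all of it Kdr and Tek, while Pecam1 reached 0.113 CPM at most. Of 5 macrophage and blood markers the sum lay between 2.43 and 9.66 CPM. Most of it was Cd68 (1.44 to 8.95 CPM) and Csf1r (0.608 to 1.83 CPM), with Hbb-bs at 0 in all 12 libraries and Ptprc at 0.122 CPM or less. Of 6 epithelial markers the sum lay between 2.06 and 13.1 CPM. Krt18 stood between 1.22 and 12.4 CPM and Cdh1 between 0.18 and 2.997 CPM, with Epcam at 0.308 CPM or less. In WT line 2 Ddx3y, a gene of the Y chromosome, stood between 91.8 and 106.7 CPM and Xist at 0.132 CPM or less, whereas in the other 9 libraries Xist stood at 102.9 CPM or more and Ddx3y at 0.195 CPM or less. The comparison of genotypes within line 2 and that of the WT lines therefore also compare cells of different sex, and the comparison over both lines contains the former. Sex cannot be told apart there from genotype or line.

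The promoters are shown for Slc2a1, Ldha, Pgk1, Pdk1, Bnip3 and Egln3, whose levels moved together, and for Hk2 and Car9, which were called between genotypes with all 12 libraries in the fit, because HIF binds a short core motif that can be searched in them. RefSeq's table for GRCm38.p6 held a promoter for all 10 genes, and the letters ACGTG and GCGTG were searched on both strands in the 250 bases before the first listed start. Coordinates are 1-based, the sequences read 5′ to 3′ on the strand of the gene, and capitals mark the motifs, where CACGT and CACGC are the same motifs on the opposite strand and CACGTG holds ACGTG on both.
The transporter Slc2a1 (chr4:119108585-119108724, plus strand) held 1 motif of each kind. Of the bases shown, 14 lie in an exon of GENCODE M21, and its ACGTG runs into them.
Slc2a1: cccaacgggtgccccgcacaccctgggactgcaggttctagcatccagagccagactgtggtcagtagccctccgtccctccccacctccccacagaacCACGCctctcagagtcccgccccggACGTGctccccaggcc
The hexokinase gene Hk2 (chr6:82774455-82774694, minus strand) held 2 matches of ACGTG, both on the opposite strand.
Hk2: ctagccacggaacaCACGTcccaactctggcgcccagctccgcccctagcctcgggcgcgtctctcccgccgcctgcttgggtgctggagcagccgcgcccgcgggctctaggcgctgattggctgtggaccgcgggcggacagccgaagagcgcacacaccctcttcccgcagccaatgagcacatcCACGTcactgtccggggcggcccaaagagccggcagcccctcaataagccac
The lactate dehydrogenase gene Ldha (chr7:46845644-46845803, plus strand) held 5 matches of ACGTG, 4 of them as overlapping pairs.
Ldha: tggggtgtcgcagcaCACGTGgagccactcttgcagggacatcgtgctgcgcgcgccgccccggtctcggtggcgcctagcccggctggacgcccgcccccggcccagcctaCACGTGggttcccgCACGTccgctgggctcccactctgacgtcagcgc
The phosphoglycerate kinase gene Pgk1 (chrX:106186940-106187099, plus strand) held 2 matches of ACGTG.
Pgk1: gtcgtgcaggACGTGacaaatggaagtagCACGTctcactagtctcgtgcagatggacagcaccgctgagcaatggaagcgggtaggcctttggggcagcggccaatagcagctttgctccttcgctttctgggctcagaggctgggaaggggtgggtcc
The kinase gene Pdk1 (chr2:71873064-71873223, plus strand) held 1 match of GCGTG and none of ACGTG.
Pdk1: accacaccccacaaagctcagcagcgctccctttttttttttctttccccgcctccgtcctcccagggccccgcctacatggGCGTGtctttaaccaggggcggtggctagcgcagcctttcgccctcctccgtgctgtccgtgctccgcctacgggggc
The mitophagy receptor gene Bnip3 (chr7:138909507-138909666, minus strand) held 2 matches of ACGTG and 3 of GCGTG. Of the bases shown, 13 lie in an exon of GENCODE M21.
Bnip3: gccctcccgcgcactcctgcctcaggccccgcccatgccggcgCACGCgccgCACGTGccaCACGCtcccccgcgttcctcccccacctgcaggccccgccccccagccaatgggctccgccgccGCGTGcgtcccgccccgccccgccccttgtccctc
The prolyl hydroxylase gene Egln3 (chr12:54203875-54204114, minus strand) held 1 match of ACGTG, far from its start.
Egln3: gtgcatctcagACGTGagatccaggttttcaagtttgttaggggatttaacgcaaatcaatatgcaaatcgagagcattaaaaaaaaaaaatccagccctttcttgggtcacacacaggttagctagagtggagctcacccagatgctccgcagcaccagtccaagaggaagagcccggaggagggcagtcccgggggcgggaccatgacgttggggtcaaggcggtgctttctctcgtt
For the carbonic anhydrase gene Car9 (chr4:43506996-43507025, plus strand) the 30 bases before the RefSeq start hold its single match, and all 30 lie in an exon of GENCODE M21, which starts the gene further upstream.
Car9: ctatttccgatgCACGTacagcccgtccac

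Of the 10 genes, 7 held ACGTG, 4 held GCGTG and 9 held at least 1 of them. In all 27025 promoters of the table, 16.57% held ACGTG, 28.21% held GCGTG and 38.6% held either. Among 11248 promoters of genes that were tested, the shares were 21.66%, 44.56% and 55.79%. Vegfa was the member without a match at its first listed start. A further start was listed for 3 members, and its window held both motifs for Vegfa, GCGTG alone for Ldha and neither for Pdk1. Pdk1 and Pfkp held GCGTG and no ACGTG, and Hk2 held ACGTG at 2 places. These matches describe letters and not binding.

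Levels per length placed the members over a wide range (CPM per kilobase of exons, mean ± SD over 12 libraries). Pgk1 and Ldha, enzymes of the later steps of glycolysis, were the highest at 367 ± 68.8 and 358 ± 73.6, and were close in mean on that length. The SD is a spread over the same 12 libraries for every gene, so it does not measure a difference between genes. On the longest transcript in place of all exons the order turned, with Ldha at 652.9 ± 134.2 and Pgk1 at 451.8 ± 84.6, so the order of these 2 genes depends on the length used. Bnip3 at 33.2 ± 10.6, Slc2a1 at 32.3 ± 8.24 and Vegfa at 30.5 ± 6.29 followed, again close in mean. Hk2 at 10.3 ± 1.71 and Egln3 at 10.03 ± 4.45 were also alike in level, as were Pdk1 at 5.22 ± 1.74 and Pfkp at 4.67 ± 0.733. Car9 was the lowest at 0.921 ± 0.416, with between 53 and 190 reads per library.

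Some members led their family in these cells and others did not. Slc2a1 was the most abundant glucose transporter measured, ahead of Slc2a10 at 4.93 ± 1.02 CPM per kilobase, and Ldha stood far above Ldhb at 18.2 ± 6.01. Pfkp, the platelet type of phosphofructokinase, stood below the liver type Pfkl (24.1 ± 5.83) and the muscle type Pfkm (10.4 ± 2.2). Hk2 stood below Hk1 (14.1 ± 1.67). Among the kinases that switch off pyruvate dehydrogenase, Pdk3 (24.8 ± 1.54) and Pdk4 (17.9 ± 7.94) exceeded Pdk1. Car13 (18.8 ± 5.42) exceeded Car9 among the carbonic anhydrases, as did Car12 (1.56 ± 1.04) and Car5b (1.33 ± 0.278) in their means, and Egln1 (20.4 ± 3.83) and Egln2 (17.5 ± 0.965) exceeded Egln3. Vegfa stood above Vegfb (15.8 ± 2.71), and Bnip3 and Bnip3l (31.2 ± 3.23) were alike in mean, though Bnip3 spread more. Levels of relatives depend on the length too. On the longest transcript the means were 28.16 for Hk1, 43.05 for Pfkl, 3.193 for Car12 and 2.457 for Car5b.

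**Figure D1:**
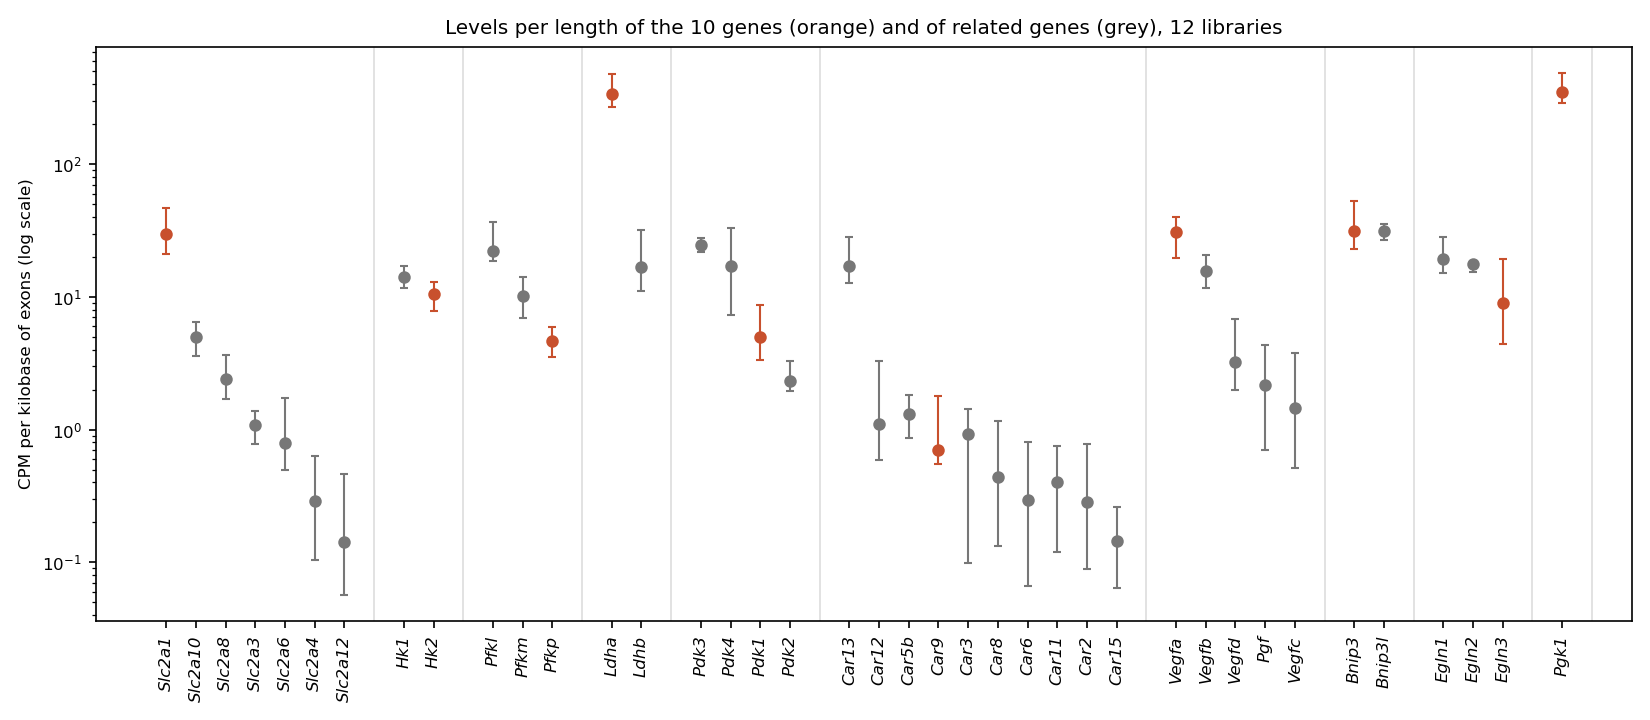
Level per length of each of the 10 genes (orange) and of related genes of its family (grey) with a mean of at least 0.1, in CPM per kilobase of exons on a log axis. Points are medians over 12 libraries and bars run from the lowest to the highest library. Ldha and Pgk1 stand above the other members, and Pfkp, Pdk1, Egln3, Hk2 and Car9 stand below 1 or more relatives.

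To ask whether loss of RTF2 changed these genes, RTF2-deficient and WT libraries were compared over both lines with a term for line. Hk2, a hexokinase that can bind mitochondria, rose, and it was the only member called at an adjusted p under 0.05. Over all genes, 13.2% were called by that rule, so 1 of 10 members is near the background. No member passed the fold threshold of the study as well (a log2 fold change over 1 in size) in edgeR or DESeq2, against 1.72% of all genes, and 2 members had an unadjusted p under 0.05. The median log2 fold change of the 10 members was 0.00272, beside 0.00194 over all genes tested, and their median size was 0.113, beside 0.150. In no member were all 6 RTF2-deficient libraries above or below all 6 WT libraries, which held for 5.97% of genes.

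Within line 1 no member was called, beside 3.20% of all genes, with 0 members at an unadjusted p under 0.05 in edgeR. DESeq2 also called 0, beside 5.97% of all genes, with 1 member at an unadjusted p under 0.05. The replicates of line 1 deviated together by number, however, and a fit of those 6 libraries with the replicate number as a block, added after seeing the data, called 5 of the 10 members, beside 29.1% of all genes. In it Hk2 rose (log2 0.26 ± 0.037, adjusted p = 0.00156), and Pdk1 (log2 -0.35 ± 0.066, adjusted p = 0.00531), Egln3 (log2 -0.23 ± 0.051, adjusted p = 0.0108), Vegfa (log2 -0.16 ± 0.036, adjusted p = 0.0112) and Bnip3 (log2 -0.22 ± 0.072, adjusted p = 0.0489) fell. With the same block in the fit of all 4 groups, 0 members were called in line 1, and fewer of all genes than in the fit of 6 libraries. That fit also holds RTF2-deficient line 2, which did not follow the numbers (same-number r with WT line 2 from -0.762 to 0.216). A block by number over all 4 groups therefore cannot show whether the 5 calls hold. Since the replicates of line 2 did not deviate together by number, no fit of line 2 alone with that block was made. RTF2-deficient line 2 instead followed WT line 2 under shifted numbers (r from 0.639 to 0.794), a match that the labels do not give. The groups of line 1 did not overlap in 1 member, Vegfa, beside 21.1% of genes. Within line 2, where WT cells were male and RTF2-deficient cells were female by the genes above, Hk2 rose and Car9 fell, 2 of 10 members beside 12.5% of all genes. The same 2 genes were those whose groups did not overlap in line 2, beside 29.5% of genes. The difference between the lines in the effect of genotype was called in no member by edgeR, beside 1.29% of genes. Its smallest adjusted p was 0.448, for Vegfa, and Vegfa and Car9 had an unadjusted p under 0.05. DESeq2 called 0 members there too, beside 2.87% of genes, with 2 members at an unadjusted p under 0.05.

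**Figure D2:**
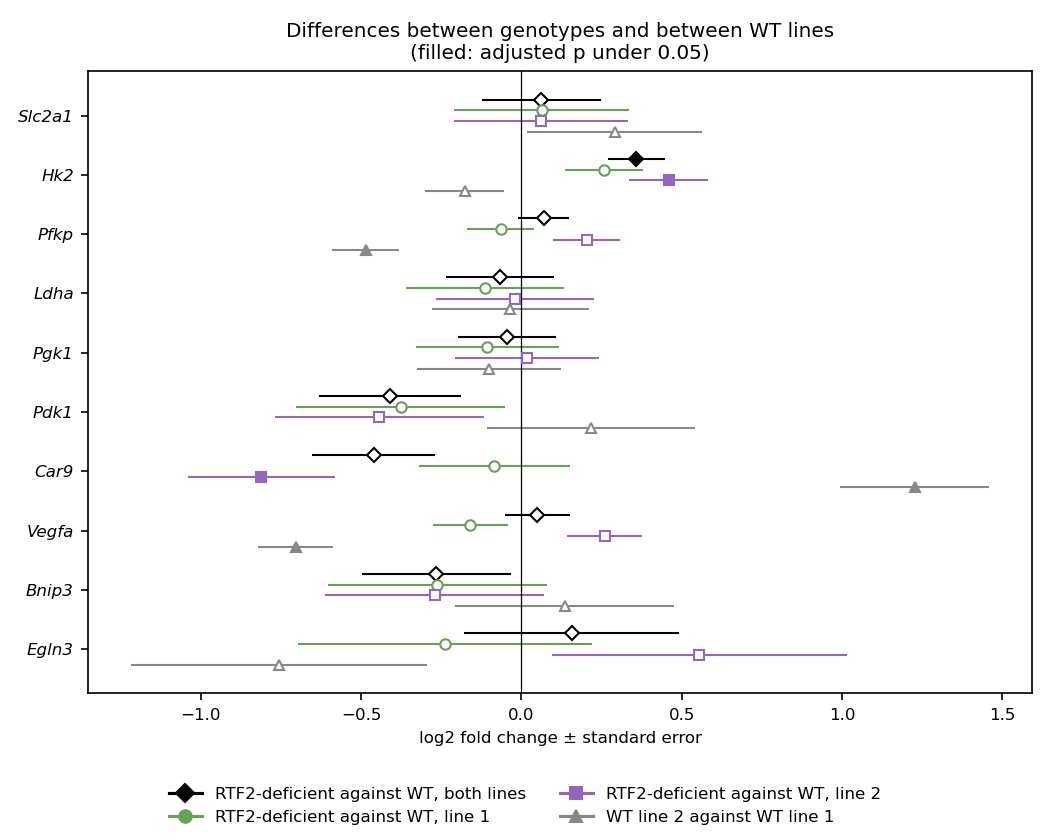
Log2 fold change with its standard error for each gene in RTF2-deficient against WT libraries over both lines (diamonds), in line 1 (circles) and in line 2 (squares), and in WT line 2 against WT line 1 (triangles). Filled symbols have an adjusted p under 0.05: Hk2 over both lines and in line 2, Car9 in line 2, and Pfkp, Car9 and Vegfa between the WT lines.

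Entry of glucose and its first phosphorylation were represented by Slc2a1 and Hk2. Slc2a1, which encodes the transporter GLUT1, stood at 73.4, 137.6 and 88.2 CPM in replicates 1, 2 and 3 of WT line 1 and at 88.9, 134.2 and 89.3 CPM in RTF2-deficient line 1. It stood at 104.7, 157.4 and 103.8 CPM in WT line 2 and at 164.2, 111.6 and 105.8 CPM in RTF2-deficient line 2. Each group thus held 1 high library, and the groups overlapped in both lines. The log2 fold change over both lines was 0.06 ± 0.185 (SE, adjusted p = 0.858), and its sign turned on leaving out any of 3 single libraries, with values down to -0.039.

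Hk2 stood at 53.4, 65.7 and 53.2 CPM in WT line 1 and at 63.3, 77.8 and 64.9 CPM in RTF2-deficient line 1. It stood at 56.8, 48.8 and 46.8 CPM in WT line 2 and at 76.4, 71.1 and 62.0 CPM in RTF2-deficient line 2. All RTF2-deficient libraries of line 2 were above those of WT line 2, whereas in line 1 the highest WT library overlapped the RTF2-deficient ones, although Hk2 was higher in the RTF2-deficient library in 3 of 3 pairs with the same number. The increase was 1.28-fold over both lines (log2 0.36 ± 0.088, adjusted p = 0.0199), with log2 values of 0.26 ± 0.123 in line 1 (adjusted p = 0.392) and 0.46 ± 0.123 in line 2 (adjusted p = 0.0329). The difference between those 2 values was not called (log2 0.20 ± 0.173, adjusted p = 0.933). Without RTF2-deficient line 1 replicate 2 the adjusted p over both lines was 0.051, and without RTF2-deficient line 2 replicate 2 it was 0.0523. With the 3 libraries of each group summed, so that 4 sums entered the fit, Hk2 had an adjusted p of 0.184 and edgeR called 0 of the 14263 genes, of which 2737 had an unadjusted p under 0.05. With the 6 libraries of line 2 alone in the fit, the adjusted p of Hk2 in that line was 0.0611. The call in line 2 was also lost on leaving out any 1 of 4 of the 12 libraries, namely WT line 2 replicate 2 (adjusted p = 0.0853) or 3 (0.102) and RTF2-deficient line 2 replicate 1 (0.12) or 2 (0.0999). The genotype accounted for 60.6% of the variance of log2 CPM of Hk2 over the 12 libraries, beside a median of 13.3% over 9281 genes with a mean of at least 10 CPM.

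Pfkp, Pgk1 and Ldha represented the later enzymes. Pfkp stood at 67.8, 79.6 and 67.7 CPM in WT line 1 and at 61.2, 74.9 and 69.5 CPM in RTF2-deficient line 1. It stood at 56.4, 46.9 and 50.4 CPM in WT line 2 and at 55.7, 56.7 and 64.4 CPM in RTF2-deficient line 2. The genotypes overlapped in both lines, and every library of WT line 2 was below those of WT line 1. The log2 fold change over both lines was 0.07 ± 0.081 (adjusted p = 0.61).

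Pgk1, which makes ATP in glycolysis, stood at 673.6, 1090 and 836.9 CPM in WT line 1 and at 673, 953.7 and 788.9 CPM in RTF2-deficient line 1. It stood at 644.7, 1039 and 740.3 CPM in WT line 2 and at 978.2, 779.4 and 696.2 CPM in RTF2-deficient line 2. The libraries of one group differed more than the groups did, and the log2 fold change was -0.04 ± 0.153 (adjusted p = 0.877). Pgk1 lies on the X chromosome, and its log2 difference between WT line 2 and WT line 1, which differ in Xist, was -0.10 ± 0.223 (adjusted p = 0.818). Ldha, which reduces pyruvate to lactate, stood at 895.9, 1583 and 1200 CPM in WT line 1 and at 922.4, 1357 and 1123 CPM in RTF2-deficient line 1. It stood at 950.9, 1563 and 1080 CPM in WT line 2 and at 1425, 1129 and 990.9 CPM in RTF2-deficient line 2. The order of the libraries within each group was that of Pgk1, and the log2 fold change was -0.07 ± 0.168 (adjusted p = 0.827).

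Pdk1 and Bnip3 act at mitochondria. Pdk1, a kinase that keeps pyruvate out of the citric acid cycle, stood at 33.9, 64.2 and 30.6 CPM in WT line 1 and at 26.2, 45.3 and 27.6 CPM in RTF2-deficient line 1. It stood at 42.5, 67.8 and 39.4 CPM in WT line 2 and at 44.0, 27.9 and 38.1 CPM in RTF2-deficient line 2. The means were lower in RTF2-deficient libraries of both lines, but the groups overlapped, and the log2 fold change of -0.41 ± 0.222 over both lines was not called (adjusted p = 0.248), and it lay between -0.542 and -0.233 with single libraries left out. In line 1 Pdk1 was lower in the RTF2-deficient library in 3 of 3 pairs with the same number, and among the fits of that line run it was called only in that of 6 libraries with the replicate block. Bnip3, a receptor for removal of mitochondria, stood at 64.9, 117.6 and 52.1 CPM in WT line 1 and at 55.2, 87.9 and 52.4 CPM in RTF2-deficient line 1. It stood at 77.4, 119.5 and 60.6 CPM in WT line 2 and at 84.1, 52.0 and 77.4 CPM in RTF2-deficient line 2. The highest library of each WT group exceeded every RTF2-deficient library, while the lower ones overlapped, and the log2 fold change was -0.27 ± 0.232 (adjusted p = 0.478), from -0.386 to -0.082 with single libraries left out.

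Vegfa, Car9 and Egln3 are targets of HIF that act outside metabolism of glucose itself. Vegfa, a secreted growth factor for blood vessels, stood at 154.2, 170.9 and 158.3 CPM in WT line 1 and at 134.3, 150.9 and 147.6 CPM in RTF2-deficient line 1. It stood at 117.1, 95.5 and 84.0 CPM in WT line 2 and at 110.1, 113.0 and 132.2 CPM in RTF2-deficient line 2. In line 1 all RTF2-deficient libraries were below the WT libraries, and in line 2 the groups overlapped. The log2 fold changes were -0.16 ± 0.117 in line 1 (adjusted p = 0.646) and 0.26 ± 0.117 in line 2 (adjusted p = 0.177), and over both lines 0.05 ± 0.1 (adjusted p = 0.778). The opposite signs differed by 0.42 ± 0.166 on the log2 scale without passing the threshold (adjusted p = 0.448). Without WT line 2 replicate 1, the log2 fold change of Vegfa in line 2 was 0.405, with an adjusted p of 0.0293.

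Car9, a membrane carbonic anhydrase, stood at 1.58, 1.31 and 1.64 CPM in WT line 1 and at 1.27, 1.52 and 1.49 CPM in RTF2-deficient line 1. It stood at 4.13, 3.4 and 3.09 CPM in WT line 2 and at 1.4, 2.0 and 2.65 CPM in RTF2-deficient line 2. WT line 2 was above the other groups, none of whose libraries exceeded 2.65 CPM. Car9 fell in line 2 (log2 -0.81 ± 0.229, adjusted p = 0.0406), with a log2 value of -0.08 ± 0.236 in line 1 (adjusted p = 0.934) and -0.46 ± 0.192 over both lines (adjusted p = 0.139). The call in line 2 was lost on leaving out any 1 of 11 of the 12 libraries (adjusted p up to 0.139) and with line 2 alone in the fit (adjusted p = 0.124). This call was also lost without a filter on low counts and with the replicate block in the fit of all 4 groups. RTF2-deficient line 2 did not follow the numbers of that block. The difference between the lines was not called (log2 -0.73 ± 0.329, adjusted p = 0.583). Egln3, the prolyl hydroxylase that HIF itself induces, stood at 20.6, 51.2 and 25.0 CPM in WT line 1 and at 17.0, 42.3 and 22.8 CPM in RTF2-deficient line 1. It stood at 11.7, 28.8 and 16.8 CPM in WT line 2 and at 38.7, 27.7 and 17.8 CPM in RTF2-deficient line 2. Its libraries spread the most of the members within groups, and the log2 fold change was 0.16 ± 0.335 (adjusted p = 0.792).

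**Figure D3:**
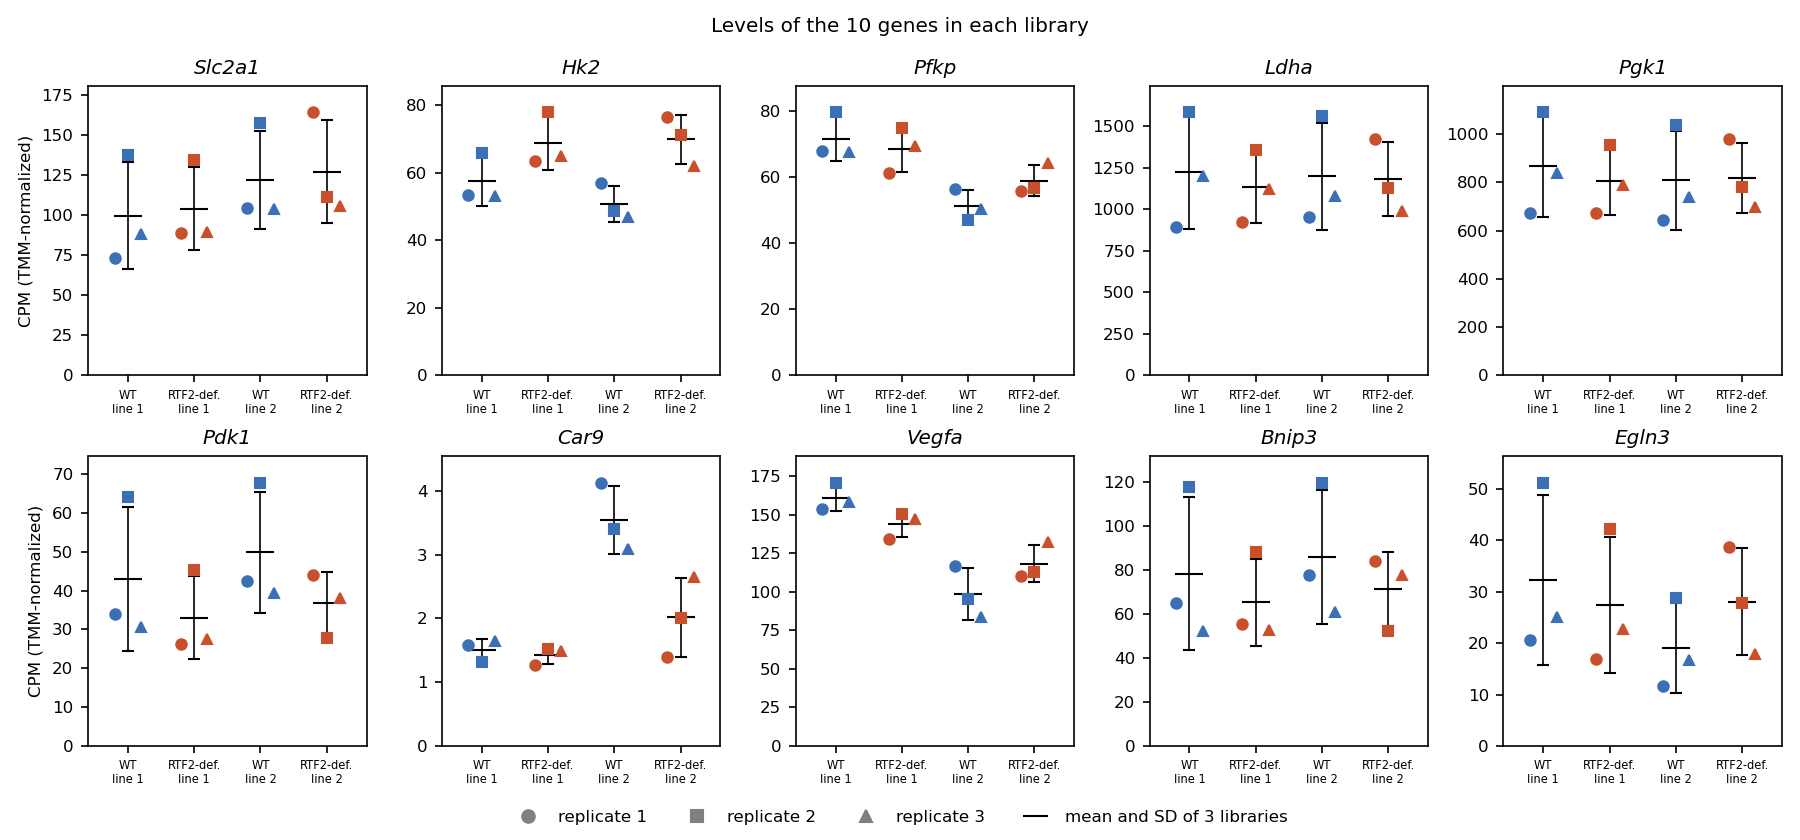
Level of each gene in each library, in CPM after TMM normalization, for WT (blue) and RTF2-deficient (red) MEFs of line 1 and line 2. Circles, squares and triangles are replicates 1, 2 and 3, and bars give the mean and SD of 3 libraries. The same library of each group is the highest for Slc2a1, Ldha, Pgk1, Pdk1, Bnip3 and Egln3, by a small margin for Pdk1 and Bnip3 in RTF2-deficient line 2.

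The WT lines differed in 3 of the 10 genes, beside 14.0% of all genes. With only the WT libraries in the fit and the replicate number as a block, since these too deviated together by number, 4 genes were called, beside 17.6%, the added one being Egln3 (log2 -0.75 ± 0.092, adjusted p = 0.00288). Vegfa was lower in WT line 2 than in WT line 1 (log2 -0.70 ± 0.118, adjusted p = 0.00248), and so was Pfkp (log2 -0.49 ± 0.105, adjusted p = 0.0107). Car9 was 2.34-fold higher (log2 1.23 ± 0.232, adjusted p = 0.00512), and it was the 1 member that also passed the fold threshold, beside 6.76% of genes. The libraries of the WT lines did not overlap in these 3 genes, beside 30.2% of all genes. Line accounted for 69.5% of the variance of Vegfa, 63.7% of that of Pfkp and 55.2% of that of Car9, beside a median of 12.5% over genes of at least 10 CPM. The comparisons of line 2 and of the WT lines share the WT line 2 libraries, so the fall of Car9 in the former and its higher level in the latter rest on the same 3 values.

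In 6 members most of the variation lay between libraries of the same group. In Hk2 it did not, at 32.1%, nor in Pfkp (24.3%), Vegfa (17.1%) or Car9 (16.0%). The share of the variance of log2 CPM within groups was 98.5% for Ldha, 97.5% for Pgk1, 89.1% for Bnip3, 79.8% for Slc2a1, 78.4% for Egln3 and 73.8% for Pdk1, beside a median of 53.1% over the 9281 genes. The SD of those 6 within groups lay between 0.305 and 0.646 on the log2 scale, against a median of 0.136. Only 1.81% of those genes had an SD as large as that of Egln3, and 9.36% one as large as that of Pgk1.

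These 6 genes varied together from library to library. Motif matches of 1 kind or both were found in the promoters of all 6, shown above, and of 3 of the other 4 members. Such matches were also found in 55.79% of promoters of tested genes, and their part in this pattern was not tested. All 6 were highest in replicate 2 of WT line 1, replicate 2 of RTF2-deficient line 1, replicate 2 of WT line 2 and replicate 1 of RTF2-deficient line 2. In those 4 libraries Egln3 deviated from its group mean by 0.531 to 0.782 on the log2 scale, Slc2a1 by 0.394 to 0.516 and Ldha by 0.277 to 0.417. In the other 8 libraries the deviations of Slc2a1 lay between -0.39 and -0.125 and those of Pgk1 between -0.336 and -0.015, while those of the other genes reached above 0, up to 0.008 for Ldha, 0.052 for Egln3, 0.08 for Pdk1 and 0.152 for Bnip3. Over the 12 libraries the Pearson's r of the 15 pairs of these 6 genes lay between 0.692 (Ldha and Bnip3) and 0.997 (Ldha and Pgk1), with a median of 0.903. Pdk1 and Bnip3 had an r of 0.982 with each other and of 0.692 to 0.809 with Ldha, Pgk1 and Egln3. The points share library, depth and group mean, so these values describe the libraries and carry no test. Hk2 had an r of 0.502 to 0.67 with the 6 genes and was highest in the same library in 3 of 4 groups, as were Pfkp and Vegfa in 2 and Car9 in 1. Pfkp and Vegfa instead followed each other (r = 0.765), and Car9 had an r of -0.512 with Egln3.

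**Figure D4:**
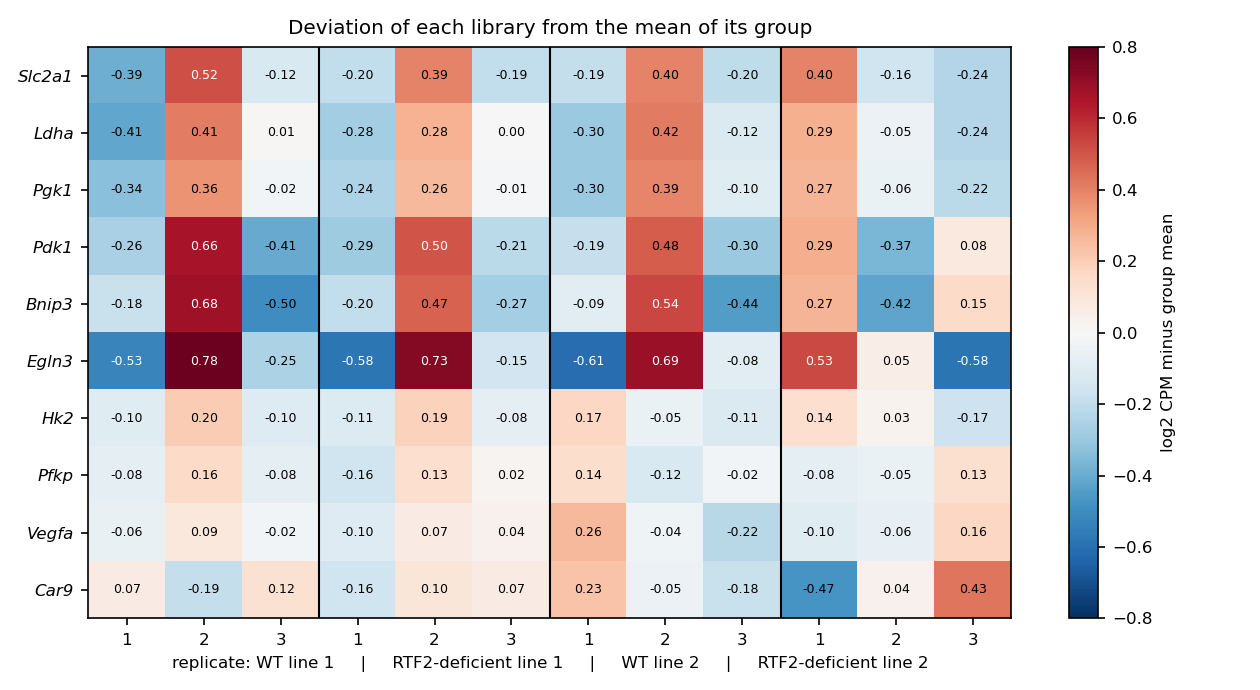
Deviation of each library from the mean of its group (log2 CPM, prior count of 2) for each gene, with red above and blue below the mean and the value printed in each cell. Replicate 2 of WT line 1, RTF2-deficient line 1 and WT line 2, and replicate 1 of RTF2-deficient line 2, are above their group means in the 6 upper genes.

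The same 4 libraries had the lowest summed level of 15 interferon-stimulated genes in their groups. The sum was 97.5 CPM in WT line 1 replicate 2, beside 131.5 and 432.9 CPM in the other libraries of that group, and 89.8 CPM in RTF2-deficient line 1 replicate 2, beside 95.3 and 163.5 CPM. It was 660.6 CPM in WT line 2 replicate 2, beside 1965 and 7004 CPM, and 143.6 CPM in RTF2-deficient line 2 replicate 1, beside 281.5 and 2655 CPM. These 4 libraries were thus the highest of their groups in the 6 members and the lowest in that sum. In RTF2-deficient line 2 replicate 3, with the highest sum of its group, Pdk1 and Bnip3 were also above their group means, by 0.08 and 0.152. The part of the interferon-stimulated genes in the results was not tested. Leaving out these 4 libraries, an alternative chosen after seeing the data that keeps 2 libraries a group, edgeR called 0 members in each of the 5 comparisons, with 0 to 5 at an unadjusted p under 0.05. Calls were few over all genes too in that fit, at 2.71% over both lines, 0.0139% in line 1, 0.806% in line 2, 0.0139% for the difference between lines and 4.38% between the WT lines. The log2 fold change of Hk2 over both lines was then 0.314 (adjusted p = 0.108), and between the WT lines Vegfa had -0.656 (adjusted p = 0.0882), Pfkp -0.364 (adjusted p = 0.137) and Car9 1.15 (adjusted p = 0.0663). In bulk RNA, fewer cells with a transcript and less of it per cell cannot be told apart.

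The genes outside the members whose deviations were most like the mean deviation of the 10, among the 9281 genes, were Bhlhe40 (r = 0.984), Ak4 (r = 0.97), Pgm1 (r = 0.969), Ext2 (r = 0.961) and Rgl2 (r = 0.953). Bhlhe40 encodes a transcription repressor, Ak4 a mitochondrial adenylate kinase and Pgm1 the enzyme that joins glycogen to glycolysis. Of the 5, Rgl2 was lower in RTF2-deficient libraries (log2 -0.31 ± 0.065, adjusted p = 0.00846), and the adjusted p of the others was 0.322 or more.

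Of 12 glycolytic enzymes that are not members and had at least 10 CPM, 11 had a positive r with the mean deviation of the members, with a median of 0.809, beside a median of 0.0344 over all such genes. Among the paralogs of members in that list, the r was 0.953 for Pfkl, 0.773 for Hk1, 0.356 for Pfkm and -0.264 for Ldhb. Of 28 hypoxia targets, 24 had a positive r, with a median of 0.675. Over all genes of that level outside the members, 4848 of 9272 had a positive r. All 14 interferon-stimulated genes of that level had a negative r, with a median of -0.603. These are counts over lists chosen with earlier results known.

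The pathway lists were next compared between genotypes over both lines, where 13.2% of all genes were called. Of 19 glycolytic enzymes tested, 1 rose (Hk2) and 1 fell, Pfkm (log2 -0.46 ± 0.109, adjusted p = 0.0175), with a median log2 fold change of -0.0663 beside 0.00194 over all genes. Of 7 glucose transporters, Slc2a6, a transporter of lysosomal membranes, fell (log2 -0.82 ± 0.185, adjusted p = 0.0126). Libraries did not overlap between genotypes in Slc2a6 and Pfkm, nor in Pdhb, Car11 and Fkbp8 named below, beside 5.97% of all genes. Of 9 regulators and genes of lactate export, Pfkfb1 fell (log2 -0.36 ± 0.103, adjusted p = 0.0407).

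Among the genes of pyruvate entry into mitochondria, Pdk4, a kinase of the same family as Pdk1, rose 2.09-fold over both lines (log2 1.06 ± 0.121, adjusted p = 0.0001688). It stood between 44.5 and 60.2 CPM in WT line 1 and between 90.4 and 115.8 CPM in RTF2-deficient line 1. It stood between 25.5 and 33.8 CPM in WT line 2 and between 60.1 and 79.5 CPM in RTF2-deficient line 2. The groups of each line were apart, although the lowest RTF2-deficient library of line 2 lay within the range of WT line 1. Pdhb, a subunit of pyruvate dehydrogenase, fell (log2 -0.29 ± 0.058, adjusted p = 0.00637), as did Pdp1, a phosphatase that activates the complex (log2 -0.27 ± 0.076, adjusted p = 0.0362). Of the 11 genes of this list 1 rose and 2 fell.

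Of 10 tested genes of the HIF machinery (the HIF subunits, their hydroxylases, VHL and cofactors), edgeR and DESeq2 called 0 between genotypes over both lines, with 1 and 2 at an unadjusted p under 0.05. Hif1a, named here after its values were seen, had a log2 fold change of 0.11 ± 0.054 (adjusted p = 0.212), and its mean level lay between 197.7 and 231.4 CPM in the 4 groups. Between the WT lines 3 of these 10 genes differed, beside 14.0% of all genes, and they too are named after their values were seen. Epas1 (log2 -1.22 ± 0.142) and Arnt2 (log2 -0.96 ± 0.168) were lower in WT line 2, and Cited2 was higher (log2 0.47). Of 42 hypoxia targets tested, members included, Ero1a rose (log2 0.26 ± 0.068, adjusted p = 0.0263) and Rcor2 fell (log2 -0.63 ± 0.14, adjusted p = 0.0112), with a median of -0.12, and DESeq2 called 5 of the 42, beside 18.9% of all genes by that tool. Within line 2, 3 rose and 3 fell, beside 12.5% of all genes, and in line 1 edgeR called 0 (3 at an unadjusted p under 0.05), beside 3.20%, and DESeq2 called 1, beside 5.97%.

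Among 10 VEGF ligands and receptors, Kdr rose (log2 0.58 ± 0.175, adjusted p = 0.0492) and Vegfd fell (log2 -0.74 ± 0.194, adjusted p = 0.0267). Kdr is also a marker of endothelial cells. The summed level of the 6 endothelial markers, Kdr included, lay between 10.8 and 14.8 CPM in WT and between 17.7 and 21.6 CPM in RTF2-deficient line 1, and between 13.3 and 15.6 CPM and between 14.2 and 19.0 CPM in line 2. Of the other endothelial markers, Tek had a mean of 5.37 CPM in WT and 8.56 CPM in RTF2-deficient line 1, and of 6.05 and 3.59 CPM in line 2. The mean of Cdh5 went from 0.0891 to 0.146 CPM in line 1 and from 0.0309 to 0.178 CPM in line 2, that of Emcn from 0.0327 to 0 and from 0.0598 to 0.404 CPM, that of Tie1 from 0.0567 to 0.105 and from 0.0532 to 0.124 CPM, and that of Pecam1 from 0.0808 to 0.0485 and from 0.0678 to 0.0623 CPM. Their part in the change of Kdr was not tested. Among 11 carbonic anhydrases, Car11, a relative without catalytic activity, fell (log2 -1.05 ± 0.266, adjusted p = 0.0224). Car3, a cytosolic carbonic anhydrase, rose 7.01-fold in line 2 (log2 2.81 ± 0.327, adjusted p = 0.0004554), where it went from 0.283 to 0.551 CPM, or 12 to 25 reads, in WT libraries to 2.18 to 3.41 CPM in RTF2-deficient libraries. It had a log2 value of -0.02 ± 0.284 in line 1 (adjusted p = 0.987), and the difference between the lines was called (log2 2.83 ± 0.432, adjusted p = 0.0132). WT line 2 was the low group, since Car3 stood between 2.12 and 4.08 CPM in line 1. Among 8 mitophagy receptors and partners, Fkbp8, a receptor of the outer mitochondrial membrane, fell by a similar amount in both lines (log2 -0.41 ± 0.06 over both lines, adjusted p = 0.00092). Its libraries did not overlap between genotypes, beside 5.97% of all genes. Bnip3l, the nearest relative of Bnip3, had a log2 fold change of 0.0024 ± 0.088 (adjusted p = 0.989).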

How the data were processed

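RNA-seq libraries for transcript analysis were single-end. Whole-number counts, not normalized, were deposited by the authors in 1 table of 24100 Entrez genes and 12 libraries. Salmon and tximport on mm10 gene models are named in the methods, but HTSeq in the submitters' processing notes, which leaves the counting tool unsettled. For strand use and poly(A) selection nothing is given in the sources used here. Total counts were 39360167 to 44695002, and 3 counts, the limit that a count of 0 allows, are at most 0.077 CPM after TMM scaling (counting error only).

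All columns were matched by label and used. Symbols came from RefSeq (24045 matched), and exon lengths from GENCODE M21. Genes past filterByExpr were tested with edgeR 4.0.16 in R 4.3.3 (TMM, quasi-likelihood test, Benjamini-Hochberg over 14263 genes), with terms for line and genotype, or as contrasts of the 4 groups for each line, their difference and the WT lines. Standard errors are the size of the unshrunken log2 coefficient over √F. Log2 CPM used a prior count of 2. Scripts were tested on simulated data. Alternatives used RLE or upper-quartile scaling, other filters, DESeq2 1.42.0, limma 3.58.1 with the group as a random block, a replicate block, no line term, summed triplicates, each line alone, each library left out and, added later, 8 libraries and 2 groups with a replicate block. Replicates with the same number paired libraries in line 1 (3 of 3 correlations of deviations from group means over 0.1, from 0.768 to 0.842) and between the WT lines (3 of 3, from 0.448 to 0.592), though not in line 2 (1 of 3, from -0.762 to 0.216). The labels do not say what a number shares. No pair of libraries of a group was within sampling noise (chi-square per degree of freedom from 20.5 to 179.5).

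The 10 genes and all lists were chosen with earlier results of these data known. Named genes were Rtf2, the members and their paralogs, up to 6 called genes per list with the largest change over both lines, and the 5 genes most like the members in their deviations from group means. Markers of cell types and the sex-linked Xist and Ddx3y are named as such. Others are said to be chosen after their values were seen.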

Additional observations from a re-analysis of the deposited data

How the results depend on the processing

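Over both lines, 1 member was called under RLE and upper-quartile scaling, no filter, 1 CPM in 6 libraries, DESeq2, the replicate block and no line term. It was 0 with triplicates summed, 2 with voom and the group as a random block (Hk2, and Car9 at an adjusted p of 0.0357), a fit that called 24.2% of all genes, 0 in the added fit of 8 libraries and 0 to 1 with single libraries left out. In line 2 the count was 1 without a filter and 1 with the replicate block (Hk2 in both, without Car9). It was 0 with that line alone, 0 in the 8 libraries and 0 to 2 with single libraries left out. Between the WT lines it was 0 in the 8 libraries, 4 with the replicate block in only the 2 groups and 3 in the other alternatives. In line 1 it was 5 with the replicate block in only the 2 groups and 0 otherwise, and for the difference between lines it was 0 throughout. Over all genes that block gave 3985 calls of 13685 in line 1, beside 456 without it in 4 groups and 367 without it in that line alone, and 2442 of 13914 between the WT lines, beside 1998 in 4 groups and 1258 in 2. The fit of 8 libraries has 2 a group.

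Replicate numbers did not pair all libraries: 12 of 18 pairs with the same number had a correlation of deviations over 0.1, the 6 others all involving RTF2-deficient line 2, and 0 of the 12 libraries matched its own number best in every other group. Replicates 1, 2 and 3 of RTF2-deficient line 2 instead correlated with replicates 2, 3 and 1 of the other groups (r from 0.547 to 0.794). The labels give no such match, so no fit was made with it. With the replicate block over all 4 groups the log2 fold change of Ldha in line 2 was 0.03, a change of sign. In the 8 libraries the sign of Ldha changed over both lines (0.013) and in line 2 (0.069), and so did that of Pgk1 over both lines (0.022). None of these values was called, and the cause was not tested.

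Leaving out single libraries turned the sign of uncalled values. Over both lines the log2 fold change ranged from -0.039 to 0.196 for Slc2a1, -0.141 to 0.041 for Ldha, -0.118 to 0.052 for Pgk1, -0.013 to 0.1 for Vegfa and -0.019 to 0.426 for Egln3. In line 1 it ranged from -0.166 to 0.359 for Slc2a1, -0.137 to 0.01 for Pfkp, -0.287 to 0.107 for Ldha, -0.251 to 0.085 for Pgk1, -0.676 to 0.026 for Pdk1, -0.541 to 0.149 for Bnip3 and -0.698 to 0.256 for Egln3. In line 2 it ranged from -0.163 to 0.288 for Slc2a1, -0.173 to 0.22 for Ldha, -0.128 to 0.241 for Pgk1 and -0.46 to 0.046 for Bnip3. Hk2 kept its sign in every alternative run, from 0.314 to 0.419 over both lines, and its value in line 1 ranged from 0.155 to 0.359 with single libraries left out. Levels per kilobase on the longest transcript instead of all exons rose to 652.9 for Ldha, 451.8 for Pgk1, 37.9 for Vegfa, 7.84 for Pdk1 and 7.21 for Pfkp.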
